A study of Mus musculus with 9 samples.

Results

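Wnt5a, its close relative Wnt5b, and genes for receptors and planar polarity proteins that act with them were followed in mouse duodenal organoids that carried an adenovirus for green fluorescent protein (Ad-GFP, the control), human HIF1 (Ad-hHIF1) or human HIF2 (Ad-hHIF2). The 10 genes (Wnt5a, Wnt5b, Ror1, Ror2, Ryk, Fzd2, Fzd3, Fzd5, Vangl1 and Vangl2) were taken by symbol from the 46517 genes in the tables, and all 10 were found. The organoids came from crypts of wild-type C57BL/6J mice and grew as 3D cultures in Matrigel with L-WRN conditioned medium, a source of Wnt3a, R-spondin 3 and noggin, so canonical Wnt ligand was supplied from outside in every group. By the methods of the study, the organoids were cultured at low oxygen. After transduction the medium also held a ROCK inhibitor, an inhibitor of the TGF-β type I receptor kinase and nicotinamide. Both HIF constructs are nondegradable forms, changed at the prolines that normally mark HIF for destruction, and the virus was given to single cells from dissociated organoids before these were seeded again, with no sort of transduced cells described, so RNA of the whole culture was measured. RNA sequencing covered 9 samples, 3 in each group, and the tables hold 21722618 to 51119041 expected counts per sample. The study describes the 3 samples of a group as biological replicates. The labels number them 1, 3 and 4 and do not name animals, so p-values measure the spread between these samples.

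Wnt5a is a secreted ligand that acts largely without β-catenin. It binds the receptor tyrosine kinases Ror1 and Ror2, the receptor Ryk and Frizzled receptors such as Fzd2 and Fzd5. Vangl1 and Vangl2 are membrane proteins at the core of the planar cell polarity pathway, in which Wnt5a orients cells within a sheet. Fzd3 belongs to the same pathway, and Wnt5b overlaps with Wnt5a in activity. In the intestine, Wnt5a is best known as a product of stromal cells that shapes gut elongation and crypt repair. HIF1 and HIF2 bind DNA as a pair with ARNT at sites whose core is ACGTG or, less often, begins with G in place of the first A.

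The targeted genes and the tissue label were checked first. Reads assigned to mouse Epas1, the gene for HIF2α, stood at 604 to 758 CPM (read counts relative to library size, scaled by the TMM method) in Ad-hHIF2, at 1.47 to 2.20 CPM in Ad-GFP and at 1.56 to 3.07 CPM in Ad-hHIF1. Reads assigned to Hif1a stood at 299 to 319 CPM in Ad-hHIF1 and at 198 to 251 CPM in Ad-GFP. These groups did not overlap, but the difference did not pass the test (edgeR adjusted p = 0.486). Among all genes tested in Ad-hHIF1 against Ad-GFP, 17.4% had groups that did not overlap. The study reports western blot and qRT-PCR checks of HIF overexpression. Epithelial Krt8, Krt18, Krt19 and Cdh1 had at least 4083 counts in every sample, whereas Epcam had 49 to 139 and Vil1, a marker of the gut brush border, 78 to 235 counts, and the crypt stem cell markers Lgr5, Ascl2 and Olfm4 had at most 52, 24 and 5 counts. The list of 11 epithelial markers summed to 3232 to 3543 CPM in Ad-GFP, 3412 to 3742 CPM in Ad-hHIF2 and 3321 to 3735 CPM in Ad-hHIF1, sums carried by the keratins. Of the 9 tested, Cdh1 rose (log2 fold change 0.53, edgeR adjusted p = 0.00313) and Epcam (-0.81, adjusted p = 0.0472) and Cldn3 (-0.44, adjusted p = 0.0462) fell in Ad-hHIF2 against Ad-GFP. Over all genes tested, 15.9% rose and 13.6% fell in that comparison at an adjusted p below 0.05. In Ad-GFP the mesenchymal filament gene Vim (1120 CPM) stood at the level of Krt8 (1067 CPM). Keratins were thus high in every group, while Epcam and Vil1 were low, the defining markers of crypt stem cells were near absent and Vim was high, so the labelled cell type is only in part borne out by its markers. Reads of 1818 olfactory and vomeronasal receptor genes, which the gut is not known to use, were taken as a measure of background. They summed to 31.7 to 69.0 CPM in Ad-hHIF2, 87.3 to 152 CPM in Ad-GFP and 61.1 to 467 CPM in Ad-hHIF1. Ad-hHIF1 replicate 3 stood apart with the highest background, so the values without it are given beside the main comparisons with the Ad-hHIF1 samples.

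Promoter sequence from RefSeq (GRCm38.p6) was matched by symbol for 6 of the 10 genes, Wnt5b, Ror1, Ror2, Ryk, Fzd5 and Vangl2, with 8 start sites between them. Wnt5a, Fzd2, Fzd3 and Vangl1 had no entry in the table used. The 250 bases before each start were searched on both strands for the word ACGTG and for the variant GCGTG. A match on the other strand reads CACGT for the first word. It reads CACGC for the variant. The first word overlaps its own reverse complement where it follows a C. Of 32851 promoters of this length, 16.6% held ACGTG, 28.2% held GCGTG and 38.6% held either. The promoters of 4 genes are shown: those of Vangl2 and Fzd5 because they changed with Ad-hHIF2, and those of Ryk and Wnt5b because they hold the letters, with each match in capitals. The Vangl2 window (chr1:172027296-172027545, minus strand) and the Fzd5 window (chr1:64737751-64738000, minus strand) held neither word and are therefore wholly in lower case. The Vangl2 window lies inside the annotated span of the gene (chr1:172000960-172028444), so its start is not the one farthest upstream. The Ryk window (chr9:102834670-102834919, plus strand) held GCGTG 4 times, and the Wnt5b window of the start farthest upstream (chr6:119544348-119544597, minus strand) held ACGTG 1 time and GCGTG 2 times.
Vangl2: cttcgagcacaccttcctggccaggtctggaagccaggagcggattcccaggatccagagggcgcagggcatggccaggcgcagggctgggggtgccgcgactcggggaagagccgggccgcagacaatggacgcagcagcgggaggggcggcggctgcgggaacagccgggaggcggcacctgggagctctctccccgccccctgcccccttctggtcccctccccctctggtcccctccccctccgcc
Fzd5: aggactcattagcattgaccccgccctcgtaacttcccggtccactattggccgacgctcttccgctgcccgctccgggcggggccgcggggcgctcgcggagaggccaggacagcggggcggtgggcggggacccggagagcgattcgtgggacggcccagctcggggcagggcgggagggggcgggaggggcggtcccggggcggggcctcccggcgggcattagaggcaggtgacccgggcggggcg
Ryk: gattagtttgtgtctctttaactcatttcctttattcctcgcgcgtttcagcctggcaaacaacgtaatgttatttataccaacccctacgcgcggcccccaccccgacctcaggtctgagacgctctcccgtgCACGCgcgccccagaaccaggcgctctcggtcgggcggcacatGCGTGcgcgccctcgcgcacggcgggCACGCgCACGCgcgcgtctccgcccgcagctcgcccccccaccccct
Wnt5b: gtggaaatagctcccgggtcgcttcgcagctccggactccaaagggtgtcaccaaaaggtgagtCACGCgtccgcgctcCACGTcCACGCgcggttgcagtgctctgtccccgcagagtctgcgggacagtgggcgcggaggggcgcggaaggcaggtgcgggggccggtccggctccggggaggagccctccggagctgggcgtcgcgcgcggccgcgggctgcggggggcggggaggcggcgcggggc
Vangl2 and Fzd5 changed with Ad-hHIF2 without these letters in the window shown, and Ryk did not pass the test with 4 matches, as described with the values of each gene. A match is a description of letters, and its absence concerns this window alone. The Ror1 and Ror2 windows held no match, and of the other 2 Wnt5b windows 1 held a single GCGTG. At least 4 matches of either word occurred in 2.58% of all promoters.

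The 10 genes spanned a wide range of expression. Levels were compared between genes as CPM per kilobase of mean effective length, because in these tables genes under 500 bases held 93.2% to 96.1% of the TPM (transcript abundance scaled by length) and left the 10 genes at no more than 3.22 TPM. In Ad-GFP the order of level per length ran Ryk, Vangl1, Fzd5, Ror2, Fzd2, Vangl2, Wnt5a, Wnt5b, Ror1 and Fzd3. Ryk stood at 13.4 ± 1.38 CPM per kilobase (SD, n = 3), above Vangl1 at 4.44 ± 0.123, and the samples of these 2 genes did not overlap. Fzd5 (3.85 ± 0.384), Ror2 (3.45 ± 0.237) and Fzd2 (2.49 ± 0.640) followed, and each overlapped with its neighbour among these 3. Vangl2 stood at 0.963 ± 0.0737 CPM per kilobase, apart from Fzd2 above and Wnt5a below. Wnt5a (0.345 ± 0.0330), Wnt5b (0.290 ± 0.0346) and Ror1 (0.189 ± 0.0911) each overlapped with the next of the 3, and Fzd3 came last, apart from Ror1, at 0.0501 ± 0.0327. In the control organoids, Ryk, Ror2, Fzd2, Fzd5 and both Vangl genes thus stood above either ligand on this scale, and Ror1 and Fzd3 did not. The place of Vangl2 above Wnt5a holds only with the mean length of each gene. By TPM, which use each sample's own length, Wnt5a was at 0.12, 0.14 and 0.02 in Ad-GFP. Vangl2 was at 0.13, 0.12 and 0.15 TPM there, so these genes overlapped.

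**Figure D1:**
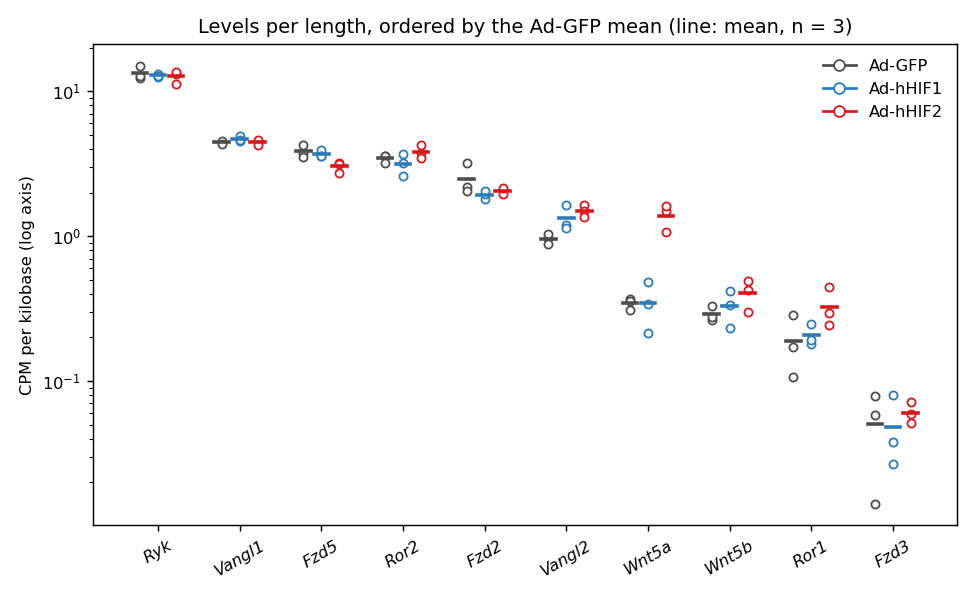
Level of each gene per length (CPM per kilobase of mean effective length, log axis) in the 9 samples, in the order of the Ad-GFP means. Points are samples, short lines are group means (n = 3). Ryk is highest in all 3 groups and Fzd3 lowest, and Wnt5a in Ad-hHIF2 lies at the level of Vangl2 rather than that of Wnt5b.

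The order held in Ad-hHIF1, with Wnt5a, Wnt5b and Ror1 again overlapping with their neighbours. In Ad-hHIF2 it changed in one place: Ror2 (3.48 to 4.26 CPM per kilobase) stood above Fzd5 (2.74 to 3.21) without overlap. Wnt5a kept its rank in Ad-hHIF2 but rose to 1.38 ± 0.283 CPM per kilobase, overlapping with Vangl2 (1.5 ± 0.147) and no longer with Wnt5b (0.404 ± 0.0962). The same background genes averaged 0.0182 to 0.09 CPM per kilobase in 8 samples and 0.268 in Ad-hHIF1 replicate 3. Fzd3 (0.0143 to 0.0800 CPM per kilobase over the 9 samples) lay below the background of its own sample in all 6 samples of Ad-GFP and Ad-hHIF1. In the 3 Ad-hHIF2 samples it stood at 0.0716, 0.0512 and 0.0591 against a background of 0.0182, 0.0284 and 0.0395, on 7 to 12 counts. In Ad-hHIF1 replicate 3, Wnt5a at 0.215 and Ror1 at 0.249 lay below its background of 0.268, so that neither was detectable above background there. A level per length also rests on the length itself: the length that RSEM assigned to Wnt5a from its isoforms ran from 1223 to 7009 bases over the 9 samples, 5.73 times, against at most 1.74 times for any other of the 10 genes. With each sample's own length, Wnt5a stood at 0.972, 1.07 and 0.179 CPM per kilobase in Ad-GFP, 1.32, 1.43 and 1.27 in Ad-hHIF2 and 0.691, 0.102 and 0.489 in Ad-hHIF1, and the Ad-hHIF2 samples still lay above all others.

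The first comparison asked which of these genes changed when HIF2 was overexpressed. Wnt5a rose about 4-fold in Ad-hHIF2, the planar polarity gene Vangl2 rose 1.56-fold, and the receptor gene Fzd5 fell to 0.794 of its control level. The other 6 genes tested did not pass the threshold of an adjusted p below 0.05 (edgeR's quasi-likelihood test with Benjamini-Hochberg adjustment over 14987 genes). Fzd3 was not tested, because its 2 to 12 counts per sample failed the filter on low counts. Over all genes tested, 15.9% rose and 13.6% fell at this threshold. With 2 of 9 genes higher and 1 lower, the share of the set that changed was close to that background, and no claim is made for the set as a whole. The median log2 fold change of the 9 genes was 0.15, against -0.01 for all genes tested.

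**Figure D2:**
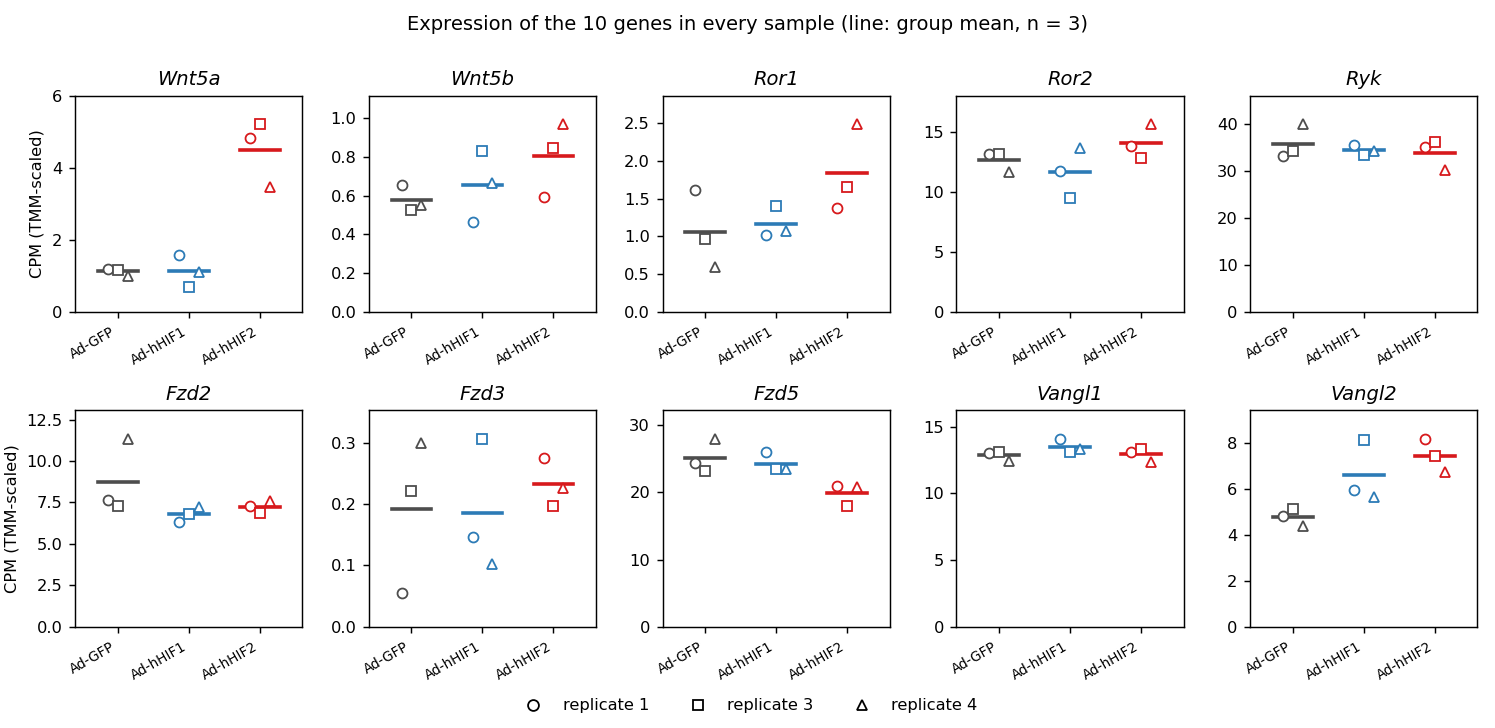
Expression of the 10 genes as CPM (TMM-scaled; each axis starts at 0) in every sample, with circles, squares and triangles for replicates 1, 3 and 4 and a line at each group mean. The 3 Ad-hHIF2 samples of Wnt5a (3.46 to 5.22 CPM) lie above the other 6 (0.701 to 1.57 CPM), those of Vangl2 lie above Ad-GFP, and those of Fzd5 lie below Ad-GFP.

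Wnt5a (ENSMUSG00000021994, chr14:28504750-28527448, plus strand, GRCm38) had 44, 42 and 20 expected counts in the Ad-GFP samples, 211, 266 and 107 in Ad-hHIF2 and 54, 16 and 43 in Ad-hHIF1. On the CPM scale these were 1.20, 1.16 and 0.9998 in Ad-GFP, 4.82, 5.22 and 3.46 in Ad-hHIF2 and 1.57, 0.701 and 1.10 in Ad-hHIF1. All 3 Ad-hHIF2 samples lay above all 6 others, which overlapped with each other. The mean was 4.501 ± 0.923 CPM in Ad-hHIF2 and 1.12 ± 0.108 CPM in Ad-GFP (SD, n = 3), a log2 fold change of 2.0 (SE 0.237, 95% confidence interval 1.46 to 2.54, edgeR adjusted p = 0.000463), or 4.0-fold with an interval of 2.75 to 5.81. Only 2.9% of all genes tested rose at least 2-fold at this threshold, and Wnt5a was the only one of the 9 that did. The change passed in all 6 fits that left a sample out, with values of 1.88 to 2.16. On a scale per length it was weaker: after the TPM were rescaled over genes of at least 500 bases, a setting chosen after seeing the data, the log2 fold change was 0.96 and the adjusted p was 0.186 by limma. An antisense gene, Gm2670, overlaps exons of Wnt5a, and the strandedness of the library is not given in the sources used here. RSEM gave Wnt5a a whole count in each of the 9 samples, unlike Fzd5.

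Because Wnt5a is known as a stromal product in the gut, mesenchymal markers were looked at beside it, and their values went in both directions. Vim, the intermediate filament gene of mesenchymal cells, stood at 1754 ± 49.0 CPM in Ad-hHIF2 and 1120 ± 12.7 CPM in Ad-GFP (log2 fold change 0.65, edgeR adjusted p = 0.000454). Of 19 listed markers 11 were tested and 3 rose, namely Vim, Foxf2 (0.98) and Col6a1 (0.53), against 15.9% of all genes. None passed downward, but 7 of the 11 had negative values, among them the collagen gene Col1a2 (-0.72) and the matrix gene Dcn (-1.37), and the median was -0.18. The Col6a1 call was lost without Ad-hHIF2 replicate 3 (0.47, edgeR adjusted p = 0.0617). Without Vim, the list summed to 91.3 to 99.1 CPM in Ad-hHIF2, 65.3 to 81.0 CPM in Ad-GFP and 70.1 to 72.1 CPM in Ad-hHIF1. Of the 19, 9 (Pdgfrb, Lum, Acta2, Des, Myh11, Foxl1, Foxf1, Thy1 and Gli1) had at most 30 counts in every sample, and Dcn had 5 to 36. Of 13 markers of endothelial, immune and neural cells, 10 had at most 30 counts in every sample, and the list summed to 14.8 to 19.9 CPM in Ad-hHIF2, 18.3 to 29.6 CPM in Ad-GFP and 17.5 to 49.9 CPM in Ad-hHIF1. The part of these markers in the Wnt5a result was not tested. In bulk RNA, more cells of a type and more RNA per cell cannot be told apart.

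Vangl2 (ENSMUSG00000026556, chr1:172000960-172028444, minus strand) was at 4.84, 5.13 and 4.40 CPM in Ad-GFP and at 8.19, 7.44 and 6.73 CPM in Ad-hHIF2. The 2 groups did not overlap, and over all genes tested 23.4% lay higher in Ad-hHIF2 without overlap. The log2 fold change was 0.64 (SE 0.132, 95% confidence interval 0.34 to 0.94, edgeR adjusted p = 0.00751), or 1.56-fold. Its relative Vangl1 (ENSMUSG00000027860, chr3:102153583-102204693, minus strand) was at 13.0, 13.1 and 12.4 CPM in Ad-GFP and at 13.1, 13.3 and 12.4 CPM in Ad-hHIF2. Those samples overlapped throughout, with a log2 fold change of 0.02 and an interval of -0.18 to 0.21, so a change as large as that of Vangl2 lay outside the interval.

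Fzd5 (ENSMUSG00000045005, chr1:64730558-64737751, minus strand), a Frizzled receptor of the gut epithelium, was at 24.5, 23.2 and 28.0 CPM in Ad-GFP and at 21.01, 18.0 and 20.8 CPM in Ad-hHIF2. All Ad-hHIF2 samples lay below all Ad-GFP samples, as did those of 22.4% of the genes tested. The log2 fold change was -0.33 (SE 0.0989, 95% confidence interval -0.56 to -0.11, edgeR adjusted p = 0.0343). This call was the least firm of the 3: of the 6 fits that left a sample out it passed in 1, the fit without Ad-GFP replicate 3, with edgeR adjusted p-values of 0.0389 to 0.135. The direction of Fzd5 turned on both TPM scales, to 0.044 and 0.077, where the median of all genes tested was 0.12 and 0.30. Its counts were not whole in any of the 9 samples, so RSEM shared reads between Fzd5 and other genes, and a gene of uncertain type, Gm38058, overlaps its exons on the other strand.

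Among the remaining receptors, Ryk (ENSMUSG00000032547, chr9:102834917-102908305, plus strand), a receptor with an inactive kinase domain, was the most abundant. It stood at 33.3, 34.2 and 40.1 CPM in Ad-GFP, 35.1, 36.3 and 30.2 CPM in Ad-hHIF2 and 35.5, 33.5 and 34.2 CPM in Ad-hHIF1, and all 3 groups overlapped. Its log2 fold change with Ad-hHIF2 was -0.07, and the 95% interval of -0.30 to 0.15 covers changes in either direction. Ror2 (ENSMUSG00000021464, chr13:53109312-53286124, minus strand), the main Wnt5a receptor of the Ror pair, was at 13.2, 13.1 and 11.6 CPM in Ad-GFP and 13.8, 12.8 and 15.7 CPM in Ad-hHIF2 (log2 fold change 0.15, interval -0.09 to 0.40, edgeR adjusted p = 0.313). Those groups overlapped. Fzd2 (ENSMUSG00000050288, chr11:102604396-102608058, plus strand) was at 7.65, 7.26 and 11.3 CPM in Ad-GFP and 7.29, 6.87 and 7.60 CPM in Ad-hHIF2, with Ad-GFP replicate 4 high and the others together (log2 fold change -0.25, interval -0.65 to 0.14; -0.03 without Ad-GFP replicate 4).

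A further 3 genes were too low for a firm statement. Ror1 (ENSMUSG00000035305, chr4:100095791-100444765, plus strand) had 12 to 59 counts in Ad-GFP and 60 to 84 in Ad-hHIF2, or 0.600 to 1.61 and 1.37 to 2.49 CPM. Its log2 fold change of 0.75 had an interval of -0.17 to 1.68 (edgeR adjusted p = 0.198), so that a 3.20-fold rise lay within the interval at this depth. Wnt5b (ENSMUSG00000030170, chr6:119432531-119544347, minus strand) had 11 to 24 counts in Ad-GFP and 26 to 43 in Ad-hHIF2, with a log2 fold change of 0.47 and an interval of -0.40 to 1.34. At this depth a rise of Wnt5b by 2.53-fold could not be told from none, whereas a rise as large as that of Wnt5a lay outside the interval. Fzd3 (ENSMUSG00000007989, chr14:65192449-65262463, minus strand) had 2, 8 and 6 counts in Ad-GFP, 12, 10 and 7 in Ad-hHIF2 and 5, 7 and 4 in Ad-hHIF1, and no fold is given.

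The second comparison asked whether HIF1 changed the same genes. None of the 9 genes tested passed the threshold in Ad-hHIF1 against Ad-GFP by edgeR or in any alternative fit. The share over all 15233 genes was 0% by edgeR's quasi-likelihood test, with 384 genes called without a count filter, 144 by DESeq2, 7 in a single fit of all 9 samples and 5 by limma-voom. At an unadjusted p below 0.05, 8.59% of all genes and 1 of the 9, Vangl2, were past the limit. The mean of Wnt5a was 1.12 ± 0.436 CPM in Ad-hHIF1, with a log2 fold change of 0.01 and an interval of -0.94 to 0.96. Its 16 counts in Ad-hHIF1 replicate 3 were the lowest of all samples, and without that sample the log2 fold change was 0.24 (edgeR adjusted p = 0.908). Both comparisons share the Ad-GFP samples.

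Vangl2 was at 5.96, 8.15 and 5.65 CPM in Ad-hHIF1, above all 3 Ad-GFP samples, with a log2 fold change of 0.45 (SE 0.187, interval 0.02 to 0.88, edgeR adjusted p = 0.579). Without Ad-hHIF1 replicate 3, its highest sample, the value was 0.28. Fzd2 was at 6.34, 6.83 and 7.24 CPM in Ad-hHIF1, below all Ad-GFP samples, with a log2 fold change of -0.36 (edgeR adjusted p = 0.633). The value was -0.13 without Ad-GFP replicate 4, its highest sample, and -0.35 without Ad-hHIF1 replicate 3. In this comparison 17.4% of all genes had groups that did not overlap, so 2 of 9 was near the background. The other 6 genes had log2 fold changes of -0.12 to 0.17.

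**Figure D3:**
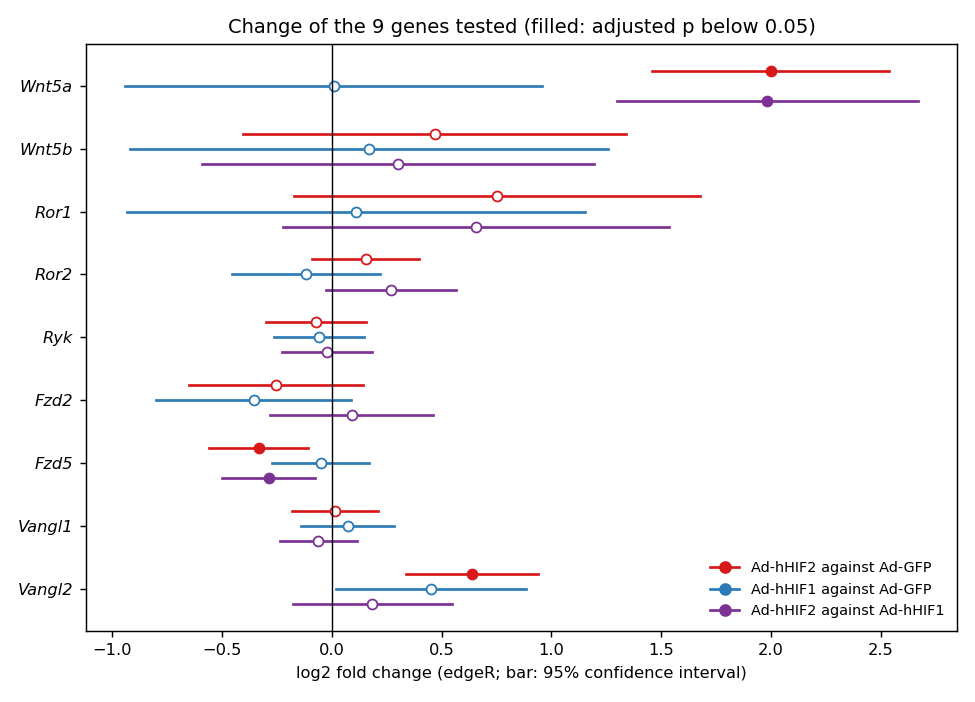
Log2 fold change of the 9 genes tested in the 3 comparisons (edgeR), with bars for the 95% confidence interval and filled points where the adjusted p was below 0.05. Wnt5a lies near 2.0 in both comparisons with Ad-hHIF2 and near 0 in Ad-hHIF1 against Ad-GFP, and the low-count genes Wnt5b and Ror1 have wide intervals.

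The third comparison set HIF2 directly against HIF1. Wnt5a was 3.96-fold higher in Ad-hHIF2 than in Ad-hHIF1 (95% confidence interval 2.46 to 6.36), a log2 fold change of 1.98 (SE 0.308, edgeR adjusted p = 0.00110), and the 3 samples of Ad-hHIF2 lay above the 3 of Ad-hHIF1. Without Ad-hHIF1 replicate 3 the value was 1.75 (edgeR adjusted p = 0.00168). Fzd5 was lower in Ad-hHIF2, which also did not overlap with the 26.0, 23.4 and 23.5 CPM of Ad-hHIF1 (log2 fold change -0.29, edgeR adjusted p = 0.0490). Without Ad-hHIF1 replicate 3 its adjusted p was 0.0516, and of the 9 fits that left a sample out it passed in 2, those without Ad-GFP replicate 3 or 4. Vangl2 did not pass (0.19, interval -0.18 to 0.55, edgeR adjusted p = 0.454), and the samples overlapped. Without Ad-hHIF1 replicate 3 its value was 0.35 (edgeR adjusted p = 0.107). Over the 15556 genes of this fit, 13.7% were higher and 12% lower in Ad-hHIF2, 2.42% were at least 2-fold higher, and 22.7% and 19.1% lay higher and lower without overlap. The other 6 genes had log2 fold changes of -0.06 to 0.66, and their 95% intervals included 0.

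The rest of the pathway was described from lists of other Wnt ligands, receptors and signalling genes. Where the text names such a gene for a count alone, it was named after its values had been seen. The counts of each list are read against the 15.9% of all genes that rose and the 13.6% that fell with Ad-hHIF2, and with so few genes a list nothing is claimed for a list as a whole. Of 17 other Wnt ligands, 5 were tested in Ad-hHIF2 against Ad-GFP, 3 fell (Wnt4, Wnt7a and Wnt7b) and none passed upward, with a median log2 fold change of -0.92. The number that fell was 1 on log2(TPM + 1), 0 on log2(TPM + 0.1) and 2 on the rescaled TPM. Wnt7a, the highest of them by TPM in Ad-GFP though below Wnt7b by CPM, stood at 3.86 ± 0.649 CPM in Ad-hHIF2 and 12.1 ± 0.937 CPM in Ad-GFP (log2 fold change -1.64, edgeR adjusted p = 0.000118). Wnt4, another largely noncanonical ligand, stood at 3.10 ± 1.5 and 9.47 ± 3.10 CPM (-1.61, edgeR adjusted p = 0.0123). It was at 3.59 to 24.5 CPM in Ad-hHIF1 with its highest value in replicate 3, the sample with the highest background reads, and the part of the background in the Wnt4 result was not tested. Background reads were also lower in Ad-hHIF2 than in Ad-GFP. Both ligands passed the 2-fold limit that 3.83% of all genes passed downward. Against Ad-hHIF1, Wnt7a fell (-1.41) past the 2-fold limit that 3.7% of all genes passed downward, and Wnt7b fell as well (-0.92). Without Ad-hHIF1 replicate 3 these values were -1.46 and -1.09. Wnt4 did not pass against Ad-hHIF1 (-1.90, edgeR adjusted p = 0.0517), and its value was -0.78 (edgeR adjusted p = 0.244) without Ad-hHIF1 replicate 3 and -2.33 (edgeR adjusted p = 0.0123) without Ad-hHIF1 replicate 4. Wnt5a was thus the only Wnt ligand among the 7 tested that passed the threshold upward with Ad-hHIF2, while a rise of Wnt5b lay within its interval.

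Of the 7 other Frizzled receptors, 5 were tested, 2 rose with Ad-hHIF2 (15.9% of all genes did) and none fell (1 without Ad-GFP replicate 4), with a median of 0.62. Fzd6, a Frizzled of the planar polarity pathway, stood at 33.4 ± 0.615 CPM in Ad-hHIF2, 16.7 ± 0.738 CPM in Ad-GFP and 17.8 ± 1.12 CPM in Ad-hHIF1 (log2 fold change 1.0, SE 0.0704, edgeR adjusted p = 2.74e-05). The 3 Ad-hHIF2 samples of Fzd6 thus lay near 2 times the level of the other 6. Fzd7 rose by 0.80 on the log2 scale. Fzd1, the most abundant of the list in Ad-GFP, was at 21.1 ± 2.0 and 20.8 ± 0.939 CPM and did not pass. Among 12 genes for Wnt secretion, co-receptors and secreted Wnt binders, 7 were tested, 3 rose and none fell, beside 15.9% and 13.6% of all genes. Lrp5, a co-receptor of the canonical branch, stood at 188 ± 13.5 CPM in Ad-hHIF2 and 87.9 ± 1.09 CPM in Ad-GFP (1.10, edgeR adjusted p = 2.84e-05), and Lrp6 and the planar polarity co-receptor Ptk7 rose by 0.37 and 0.43.

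Of 24 planar cell polarity genes, 23 were tested, 5 rose (Rac1, Cdc42, Rock1, Daam1 and Intu, by 0.31 to 0.49) and 2 fell, with a median of 0.08. These counts are near the 15.9% and 13.6% of all genes. The medium of every group held a ROCK inhibitor, and its part in the values of this list was not tested. The number that rose was 2 without Ad-GFP replicate 1 and 3 without Ad-hHIF2 replicate 3, and the number that fell was 1 in 5 of the 6 fits that left a sample out. Prickle1, a cytoplasmic partner of the Vangl proteins, was at 2.80 ± 0.335 CPM in Ad-hHIF2, 5.54 ± 1.20 CPM in Ad-GFP and 6.53 ± 1.31 CPM in Ad-hHIF1 (-0.97 against Ad-GFP, edgeR adjusted p = 0.00950). Celsr3, a polarity cadherin, had 10 to 15 counts per sample in Ad-GFP and 1 to 7 in Ad-hHIF2 (edgeR adjusted p = 0.0381), a call that passed in 6 of 14 alternatives. The Ad-GFP mean of Celsr3, 0.0497 CPM per kilobase, did not exceed the background of those samples (0.04998, 0.0772 and 0.0872). That background was lower in Ad-hHIF2 (0.0182, 0.0284 and 0.0395), and its part in the Celsr3 result was not tested. Rhoa, the highest of the list per length in Ad-GFP, was at 122 ± 8.24 and 103 ± 11.3 CPM and did not pass (edgeR adjusted p = 0.0907).

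Of 21 genes of the Wnt calcium branch, 16 were tested, 6 rose and 1 fell, with a median of 0.24, beside 15.9% and 13.6% of all genes. Plcb1, a phospholipase that releases calcium, stood at 1.62 ± 0.224 CPM in Ad-hHIF2 and 0.468 ± 0.267 CPM in Ad-GFP (1.75, edgeR adjusted p = 0.0157). The transcription factor gene Nfatc2 stood at 3.74 ± 0.558 and 2.05 ± 0.305 CPM (0.86, edgeR adjusted p = 0.0185). The Plcb1 call was lost without Ad-GFP replicate 1, Ad-hHIF2 replicate 3 or Ad-hHIF2 replicate 4 (edgeR adjusted p = 0.0517 to 0.0554), and that of Nfatc2 without Ad-GFP replicate 3, Ad-hHIF2 replicate 1 or Ad-hHIF2 replicate 4 (edgeR adjusted p = 0.0570 to 0.0647). Plcb1 had 6 to 28 counts per sample in Ad-GFP and 56 to 85 in Ad-hHIF2. Its Ad-GFP mean of 0.102 CPM per kilobase lay close above the background of those samples (0.04998, 0.0772 and 0.0872). That background was lower in Ad-hHIF2, and its part in the Plcb1 result was not tested. The number of the list that rose was 3 without Ad-hHIF2 replicate 4. Prkcd, the highest of this list per length in Ad-GFP, fell from 55.0 ± 1.72 to 45.4 ± 3.41 CPM (-0.27, edgeR adjusted p = 0.0229). Its direction turned on both TPM scales, where it still lay below the median of all genes tested (0.12 and 0.30). It did not pass in 4 of the 6 fits that left a sample out, those without Ad-GFP replicate 1 or 3 or without Ad-hHIF2 replicate 3 or 4. In Ad-hHIF1, Prkcd stood near its level in Ad-hHIF2, at 44.6 ± 2.77 CPM (-0.30 against Ad-GFP, edgeR adjusted p = 0.490).

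Smad3 and the genes for inhibitors of cyclin-dependent kinases were listed because noncanonical Wnt signals have been tied to them in crypt repair. In the work that the study cites, this link runs through TGF-β signalling. The medium of every group held an inhibitor of the TGF-β receptor kinase, and its part in the values below was not tested. Of 8 genes, all were tested, 3 rose and 1 fell, beside 15.9% and 13.6% of all genes. Smad3 itself was at 70.0 ± 6.25 CPM in Ad-hHIF2, 74.1 ± 2.84 CPM in Ad-GFP and 73.1 ± 4.75 CPM in Ad-hHIF1 and did not pass (-0.08, interval -0.26 to 0.11). Cdkn2c rose from 3.09 ± 0.493 to 8.97 ± 1.13 CPM (1.53, edgeR adjusted p = 0.000281), and Cdkn1a and Cdkn1b rose by 0.93 and 0.49 while Cdkn2b fell by 0.81 on the log2 scale. The number that rose was 2 without Ad-GFP replicate 1, Ad-hHIF2 replicate 1 or Ad-hHIF2 replicate 3. Cdkn2a, the highest by TPM in Ad-GFP, was at 76.5 ± 9.70 and 73.6 ± 16.7 CPM and did not pass. In Ad-hHIF1 against Ad-GFP no gene of these 6 lists passed by edgeR, with 3 genes at an unadjusted p below 0.05 over the 3 lists of downstream genes and 0 over the others. Over all genes tested, 8.59% were past that unadjusted limit.

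**Figure D4:**
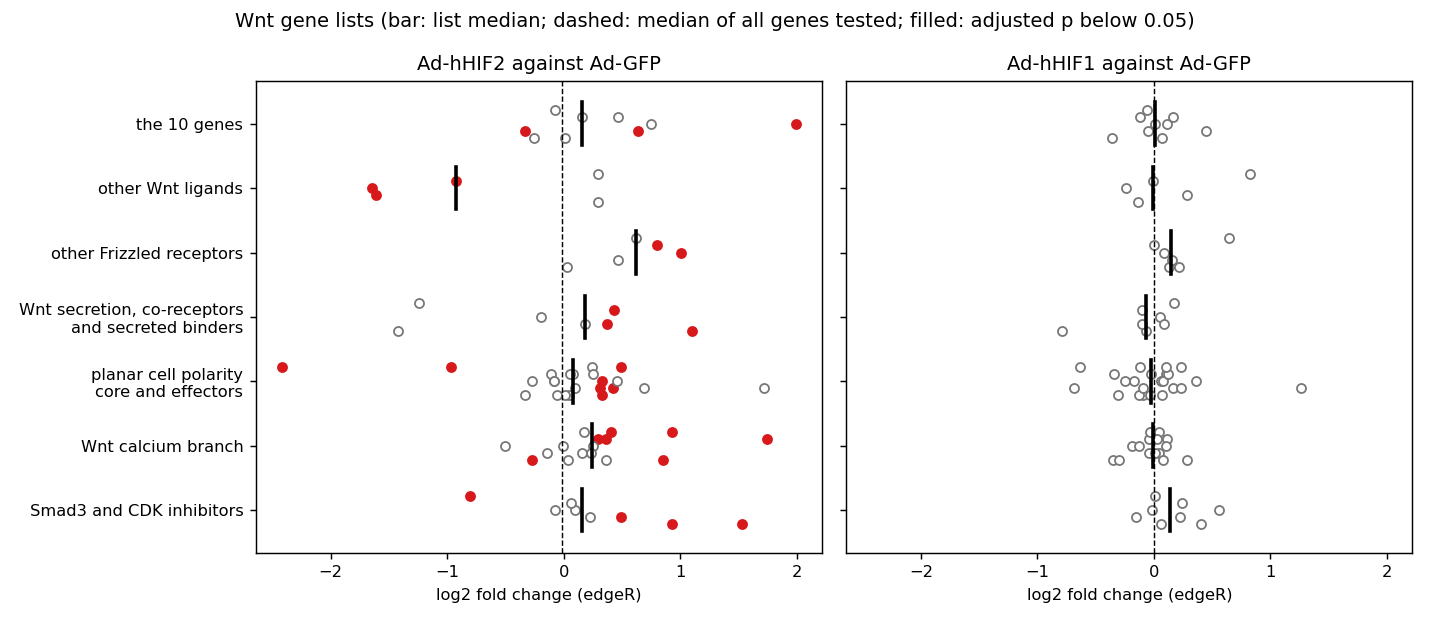
Log2 fold change (edgeR) of every tested gene of the 10 genes and of 6 wider Wnt lists, with Ad-hHIF2 against Ad-GFP on the left and Ad-hHIF1 against Ad-GFP on the right. Filled points have an adjusted p below 0.05, bars are list medians and the dashed line is the median of all genes tested; all filled points are on the left.

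The genes whose pattern over the 9 samples was most like that of Wnt5a were Avl9, Spag9, Ppp1r15b, Tmem135 and Clec16a, with Pearson r of log2 CPM of 0.992, 0.991, 0.990, 0.986 and 0.986 among 15554 genes. Avl9 acts in vesicle traffic, Spag9 is a JNK scaffold, Ppp1r15b directs removal of phosphate from eIF2α, and Clec16a acts in mitophagy. Their changes with Ad-hHIF2 were smaller than that of Wnt5a, with log2 fold changes of 0.41 to 0.91. The 9 samples fall into 3 groups, so r mostly reflects the difference between Ad-hHIF2 and the rest. None of the other 8 genes tested was near the top: r was 0.598 for Ror2, 0.535 for Ror1, 0.521 for Vangl2, 0.312 for Wnt5b and -0.787 for Fzd5, and 3527 genes had an r at least as high as that of Ror2.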

How the data were processed

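The data are RNA sequencing tables of 9 organoid samples, with groups and replicate numbers from the sample labels. The authors estimated expected counts per gene with RSEM. The version, aligner, genome build, annotation and strandedness are not given in the sources used here. The deposited expected counts are not normalized, and 85.7% are whole numbers. The TPM and FPKM deposited by the authors come from the same counts and the effective lengths in the tables; FPKM were not used. The deposited TPM served as an alternative only, because short genes hold most of them, and levels between genes are therefore CPM per kilobase and not TPM as first planned.

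Counts were rounded, filtered with filterByExpr, normalized by TMM and tested by quasi-likelihood in edgeR 4.0.16 under R 4.3.3, and p-values were adjusted by Benjamini-Hochberg over every gene tested. The fits of Ad-hHIF2 and of Ad-hHIF1 against control used 6 samples each, and Ad-hHIF2 was set against Ad-hHIF1 within a fit of all 9. Calls required an adjusted p under 0.05, and a second limit added a 2-fold change. Alternatives used limma 3.58.1 and DESeq2 1.42.0. CPM use TMM factors over 9 samples, and errors are SD unless named. The 3 values given for a group are replicates 1, 3 and 4. The methods were tested on simulated data. Library totals of 21722618 to 51119041 limit the precision of genes with few counts.

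Positions were looked up by Ensembl gene in GENCODE M21 (GRCm38). All 10 members are named; genes of the wider lists are named where they passed the test with a 2-fold change in either comparison of Ad-hHIF2 or were the most abundant of their list by TPM in Ad-GFP. Genes like Wnt5a were the 5 with the highest Pearson r of log2 CPM with a prior count of 2, Epas1 left out. The members and lists were chosen with earlier results of these data known. Same-numbered samples were compared by the correlation of their deviations from the group means, and the numbers were not taken as pairs. The alternatives were other count filters, median-ratio size factors, library totals only, DESeq2, limma-voom, limma on TPM, the replicate block, other sets of samples in the fit and each sample left out. Limma on rescaled TPM, and all alternatives for the wider lists, were added after seeing the data. The figures were drawn with matplotlib 3.10.9.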

Additional observations from a re-analysis of the deposited data

How the results depend on the processing

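Wnt5a passed in Ad-hHIF2 against Ad-GFP in 16 of 17 alternatives and against Ad-hHIF1 in 19 of 20, and with a sample left out its log2 fold change was 1.88 to 2.16 and 1.75 to 2.28. On log2(TPM + 1) and log2(TPM + 0.1) its value against Ad-GFP was 0.17 and 0.82, where the median of all genes tested was 0.12 and 0.30. The exception in both was limma on the rescaled TPM, chosen after seeing the data, with 0.96 (adjusted p = 0.186) and 1.44 (adjusted p = 0.0902). Vangl2 passed against Ad-GFP in 14 of 17 alternatives, all but the 3 TPM scales (adjusted p = 0.111 to 0.234). Fzd5 passed in 8 of 17 and 8 of 20. Its sign turned on log2(TPM + 1), with 0.044 against Ad-GFP and 0.018 against Ad-hHIF1, on log2(TPM + 0.1), with 0.077 and 0.011, and on the rescaled TPM against Ad-hHIF1, with 0.066; Prkcd turned to 0.021 and 0.012 on the first 2 scales against Ad-GFP. Against Ad-GFP the median of all genes tested was 0.12, 0.30 and 0.16 on log2(TPM + 1), log2(TPM + 0.1) and the rescaled TPM. Against Ad-hHIF1 it was 0.063, 0.17 and 0.23. The Fzd5 and Prkcd values that turned lay below the medians of their scales. The cause was not tested.

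Of the 10 genes, 3 were called in Ad-hHIF2 against Ad-GFP, 1 on both TPM scales and 0 on the rescaled TPM, and at 2-fold 1 was called and 0 on all 3 TPM scales. Against Ad-hHIF1, 2 were called, 1 without a count filter, with library totals only and on both TPM scales, 0 on the rescaled TPM, and 1 to 2 with a sample left out; at 2-fold 1 was called, 0 on log2(TPM + 1) and on the rescaled TPM. In Ad-hHIF1 against Ad-GFP the count was 0 in every alternative. With library totals only, the median of all genes tested moved by 0.26 in Ad-hHIF2 against Ad-GFP, so changes are read relative to it.

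The replicate block changed no call among the 10 genes: Wnt5a was 2.0 against Ad-GFP (adjusted p = 0.000726). The correlation of same-numbered samples was 0.0703 to 0.134 for Ad-hHIF2 with Ad-GFP, -0.0909 to 0.0969 for Ad-hHIF1 with Ad-GFP and -0.194 to -0.0670 for the HIF groups, so the numbers were not taken as pairs. Depth limits Wnt5b, Ror1 and Fzd3, which had at most 84 counts in any sample. On both log2(TPM + 1) and log2(TPM + 0.1), the number of genes that rose against Ad-GFP was 1 in the planar polarity list, 1 in the calcium list and 1 among the secretion and co-receptor genes. Over all alternatives these numbers were 1 to 7, 1 to 9 and 1 to 4.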
